A study of Homo sapiens with 8 samples.

Results

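The clustered protocadherins were examined as the 57 rows of the gene table whose symbols begin with PCDHA (15 rows), PCDHB (19 rows) or PCDHG (23 rows), out of 25369 named rows. All 57 lie on the plus strand of human chromosome 5, at chr5:140165721-140892548 (hg19). The table held RNA sequencing read counts from UWB1.289, a human high grade serous ovarian cancer (HGSOC) cell line, in 8 libraries that form 4 groups of 2. BRCA1-null cells are UWB1.289 itself, which carries a BRCA1 mutation. BRCA1+ cells are UWB1.289 transduced with BRCA1. BRCA1-null control and BRCA1+ control cells received DMSO for 24 h, and BRCA1-null entinostat and BRCA1+ entinostat cells received 0.5 uM entinostat, a class I histone deacetylase inhibitor, for 24 h. The BRCA1+ cells are a single derived line, so the effect of BRCA1 and any other difference between the lines cannot be told apart. The study's methods speak in general of distinct samples, but nothing says that the libraries of a group came from separate cultures, and the p-values then measure only the spread between these libraries.

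Clustered protocadherins are cadherin-family adhesion proteins best known from neurons, where each cell uses a different combination of them to tell its own processes from those of other cells. In the PCDHA and PCDHG clusters every variable exon has its own promoter and is spliced to the same set of constant exons, whereas each PCDHB gene is complete within its own exon. Their promoters carry a conserved element that contains the letters CGCT. CTCF and cohesin join active promoters of the clusters to distant enhancers, and methylated promoters stay silent. The C-type members PCDHAC1, PCDHAC2, PCDHGC3, PCDHGC4 and PCDHGC5 lie next to the constant exons and are more evenly used among cells than the others.

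The promoter element is shown for some of the PCDHB and PCDHG members discussed later, and for none of the PCDHA members. Promoters from RefSeq (GRCh38.p14, 250 bases before to 50 after the start) numbered 35116 in all and were available for 47 members. Only 1 was kept per member, whereas the 35116 were not reduced to 1 per gene. They were searched on both strands for CGCT, for GGCGCT, which contains CGCT, and for CCCTC. Both GGCGCT and CCCTC are pieces of the CTCF motif. GGCGCT was present in 13 of 14 PCDHB promoters (92.9%), with PCDHB1 the exception, in 1 of 13 PCDHA and in 8 of 20 PCDHG promoters, and in 21.7% of all promoters. In the windows below, which all lie on the plus strand, the capitals mark GGCGCT.
PCDHB2, chr5:141094546-141094575: gagacgcggggtGGCGCTgcagccttagaa
PCDHB5, chr5:141135181-141135210: aggacgcctggtGGCGCTgcaggctaagag
PCDHB8, chr5:141177779-141177808: aggacccgtggtGGCGCTgcaggataagaa
PCDHB16, chr5:141182312-141182341: agaacgcgtggtGGCGCTgcaggttaagat
PCDHB9, chr5:141187076-141187105: aagccacaaggtGGCGCTgcagactgaaga
PCDHB13, chr5:141213867-141213896: aggacgcgtggtGGCGCTgcaggataagaa
PCDHGB4, chr5:141387646-141387675: agtggagagcttGGCGCTccagatctcctc
PCDHGB5, chr5:141397892-141397921: agtgcagagcttGGCGCTccagatctcctc
In all PCDHB windows printed the capitals are followed by gcag, and in those of PCDHGB4 and PCDHGB5 by ccag. Of the PCDHB windows not printed, those of PCDHB4, PCDHB10, PCDHB12 and PCDHB15 also had gcag. PCDHB3 had gttg, PCDHB7 gctg and PCDHB14 acag. The shorter CGCT was present in 46 of the 47 member promoters against 70% of all promoters, and CCCTC in 0 of 14 PCDHB promoters against 71.2% of all. Whole CTCF motifs were not searched for, so a missing CCCTC does not show that the motif is missing. PCDHB6, PCDHB11, PCDHB17, PCDHB18, PCDHB19P, PCDHA3, PCDHA13, PCDHGA12, PCDHGB8P and PCDHGC5 had no entry.

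Total counts ranged from 31900158 to 53549893 per library, and the limit that a count of 0 allows, 3 counts, corresponded to 0.0552 to 0.0946 CPM (counts per 1000000 counts of effective library size, with counting error only). BRCA1 itself was measured at 92.3 to 133 CPM in BRCA1+ libraries and at 17.6 to 22.4 CPM in BRCA1-null libraries, which follows the labels. Of 11 markers of serous epithelium, 10 had at least 1 CPM in every library, against 2 of 10 neuron markers. Summed levels of 10 neuron markers were 73.7 to 95.6 CPM in BRCA1+ and 89.8 to 113 CPM in BRCA1-null libraries, and those of 5 fibroblast markers, of which DCN and LUM were at 0, were 12.9 to 33.7 and 29.8 to 59.3 CPM. The 5 leukocyte markers summed to 12.6 to 18.9 CPM in BRCA1+ and 23.2 to 35.5 CPM in BRCA1-null libraries, and the 4 endothelium markers to 9.48 to 38.3 and 36.6 to 92.9 CPM. The part of these markers in the results was not tested, and fewer cells that express a gene and less RNA per cell cannot be told apart in bulk libraries.

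The rows of the PCDHA and PCDHG clusters did not measure separate genes. Every PCDHA row includes the same 3 constant exons, at chr5:140358534-140358592, chr5:140362060-140362148 and chr5:140389212-140391929 (hg19), which hold 2866 bases. The PCDHG rows other than PCDHGB8P share 2177 bases at chr5:140874374-140874432, chr5:140884960-140885048 and chr5:140890514-140892542. How the counting treated reads from exons that rows share was not stated. The lowest row, PCDHA1, had a mean of 1101 counts and the lowest PCDHG row, PCDHGA2, had 2699, and these are called the shared counts. The pseudogene PCDHGB8P shares no exon with the others and had a mean of 24.0 counts.

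Shared counts made up most of each row. As a share of a row's count they had a median of 90.1% in PCDHA, with 68.1% the lowest in any library, and a median of 98.2% in PCDHG, with 66.4% the lowest. More than 95% was shared in every library in 4 of the 14 other PCDHA rows and in 18 of the 21 other PCDHG rows. Rows of a cluster repeat these shared reads and so are not independent. Across the 8 libraries, the lowest correlation between any pair of rows, on log2 CPM, was r = 0.985 in PCDHA and 0.938 in PCDHG. Each row was therefore also reduced by its cluster's lowest row, library by library, to leave a row-specific count, a step chosen after the data had been seen. Any reads of the lowest row's own variable exon were subtracted too, so small row-specific counts are offsets from that row and not absolute levels.

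**Figure D1:**
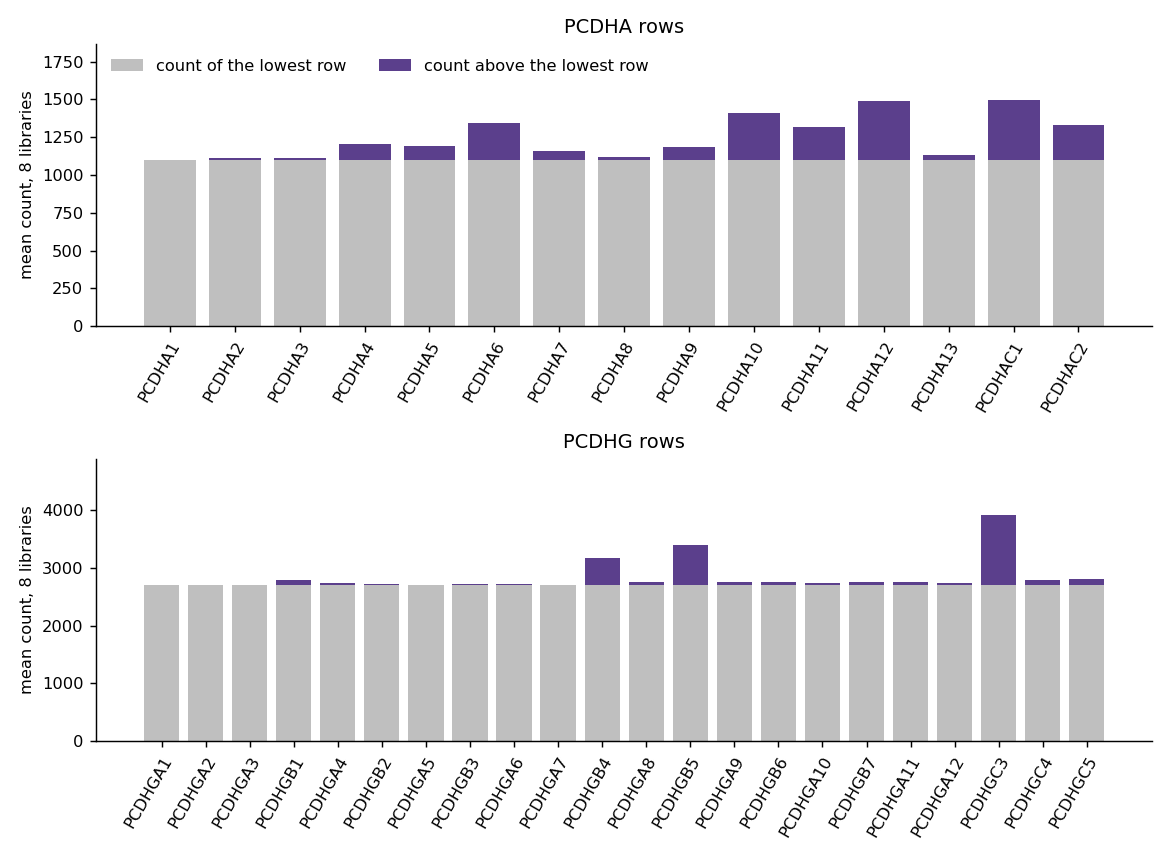
Mean read count over 8 libraries for each PCDHA row (top) and each PCDHG row (bottom) in chromosomal order, with the count of the cluster's lowest row in grey and the count above it in purple. The grey part is 1101 counts in PCDHA and 2699 counts in PCDHG, and only PCDHGC3, PCDHGB5 and PCDHGB4 rise clearly above it in the lower panel.

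Use of the variable exons was uneven in all libraries. Per kilobase of row-specific sequence, PCDHGC3 had the highest mean level at 9.81 CPM per kb, followed by PCDHGB5 at 6.53 and PCDHGB4 at 4.61 CPM per kb. These held 71.5% to 75.9% of the row-specific PCDHG counts of a library, although PCDHGB4 and PCDHGB5 have about 20% of their 50-base windows in common (19.8% and 19.4%), so that reads could be assigned to either. In PCDHA the highest levels were those of PCDHA12 (3.50 CPM per kb), PCDHAC1 (3.27) and PCDHA10 (2.67), which held 42.5% to 57.3%.

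At the low end, PCDHGA3 had 0 to 2 row-specific counts per library, at or under the floor in every library. PCDHGC4 and PCDHGC5 differed by only 1 to 10 row-specific counts in a library, at 0.852 and 0.883 CPM per kb. The 6 rows from PCDHGA9 to PCDHGA12 (PCDHGB8P aside) all lay between 0.571 and 1.92 CPM. Whether values this alike are separate measurements of those genes was not tested.

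**Figure D2:**
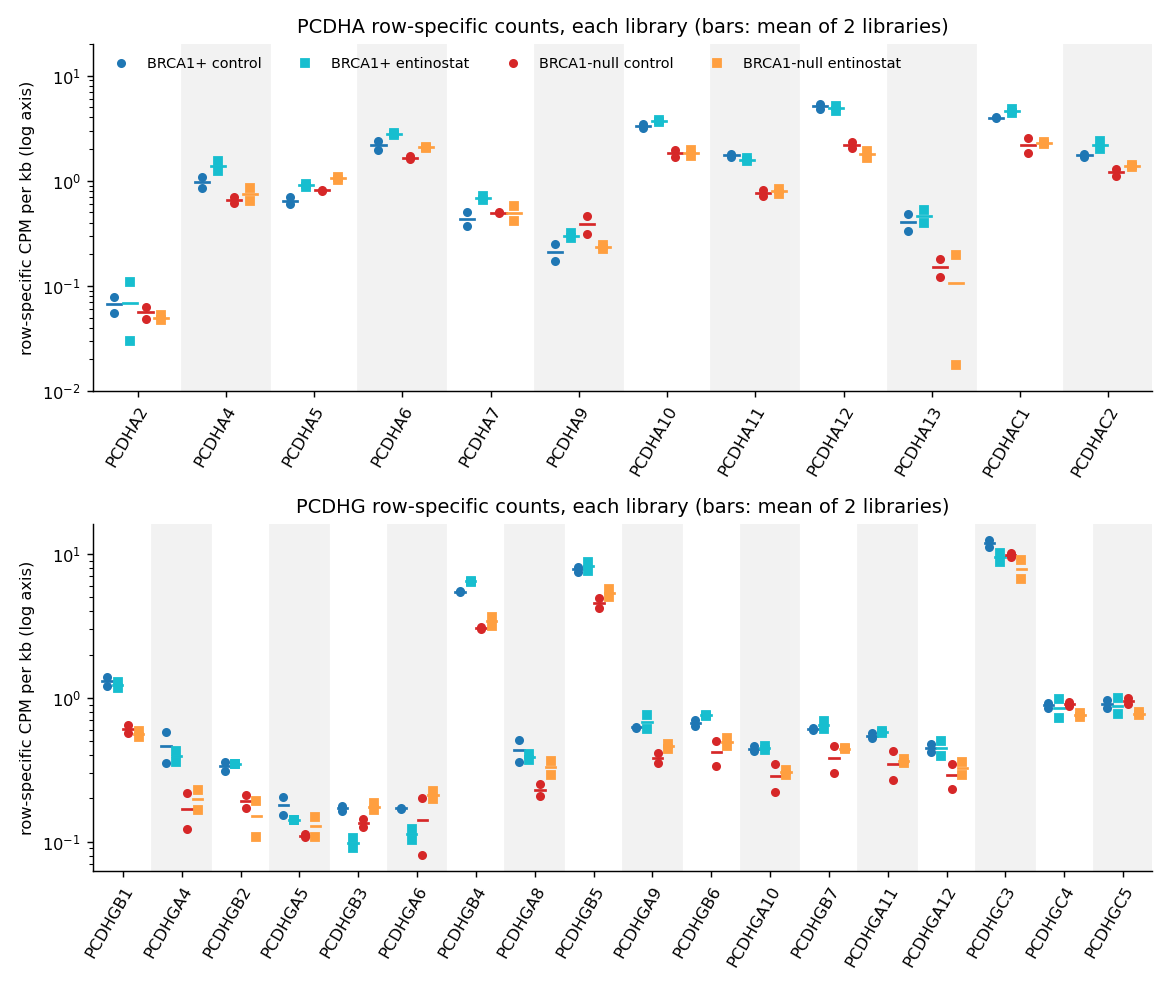
Row-specific CPM per kb on a log axis for PCDHA (top) and PCDHG (bottom) rows, 1 point per library and a bar at the mean of the 2 libraries of a group. Rows with a 0 in any library (PCDHA3, PCDHA8, PCDHGA1, PCDHGA3 and PCDHGA7) are not drawn. PCDHA10, PCDHA11, PCDHA12, PCDHAC1, PCDHGB1, PCDHGB4 and PCDHGB5 have all BRCA1-null libraries below all BRCA1+ libraries. The same holds for PCDHA13, PCDHAC2, PCDHGA4, PCDHGB2 and the rows from PCDHGA9 to PCDHGA12.

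PCDHB rows have their own exons and share no constant exons, but parts of their sequences are alike. Of the 50-base windows of a row, 30.3% also occurred in another clustered row for PCDHB2, 31.9% for PCDHB10, 34.3% for PCDHB13, 21.5% for PCDHB9 and 20.9% for PCDHB17, so that some reads could be assigned to either. PCDHB5 was the highest at 3.01 CPM per kb, followed by PCDHB2 at 1.98 and PCDHB6 at 1.65, and these held 66.5% to 84% of the PCDHB counts of a library. They were the 3 PCDHB rows above 1 CPM in all libraries. The 13 rows that passed the filter on low counts ranged down to PCDHB19P, a pseudogene, at 0.0528 CPM per kb. Those that did not pass, PCDHB1, PCDHB3, PCDHB4, PCDHB7, PCDHB15 and PCDHB18, had at most 13 counts in a library (0.280 CPM), and PCDHB18 was at or under the floor in all libraries. Of the 57 members, 51 passed the filter and were tested, as were 17714 genes in all.

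The comparison of BRCA1-null with BRCA1+ cells in DMSO asks how loss of BRCA1 goes with protocadherin expression. All 15 PCDHA rows and 22 of 23 PCDHG rows were lower in BRCA1-null cells, while 6 of the 13 tested PCDHB rows were higher and 1 was lower. Of all genes tested, 42.2% were called, 21.1% higher and 21% lower. The median log2 fold change was -0.91 over PCDHA rows, -0.37 over PCDHG rows and 0.58 over tested PCDHB rows, and 0.01 over all genes. Since the PCDHA and PCDHG rows repeat the same reads, 15 and 22 are not numbers of independent genes.

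The PCDHA shared count was 29.9 and 34.5 CPM in BRCA1+ control and 18.2 and 16.0 CPM in BRCA1-null control libraries. It differed by a log2 fold change of -0.92 ± 0.10 (SE, n = 2 per group; adjusted p = 0.00013), with no overlap between the groups. The PCDHG shared count was 69.4 and 72.6 CPM against 53.4 and 56.7 CPM, a smaller difference of -0.37 ± 0.07 (adjusted p = 0.00334) and again without overlap. PCDHGB8P, at 0.7503 and 0.523 against 0.330 and 0.441 CPM, did not pass the test (-0.68 ± 0.35, adjusted p = 0.144).

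The row-specific counts showed which variable exons were lower. In PCDHA, 7 of 14 were lower and 1 was higher, and in PCDHG 6 of 20 tested were lower and 0 higher, with 42% of all genes called in that fit (21.1% higher, 20.9% lower). Among the PCDHA exons above 5 CPM in both BRCA1+ control libraries, PCDHA12 and PCDHA11 differed most. PCDHA12 was measured at 14.0 and 12.5 CPM in BRCA1+ control and at 6.09 and 5.26 CPM in BRCA1-null control libraries. Its log2 fold change was -1.23 ± 0.13 (adjusted p = 9.57e-05).

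PCDHA11 followed at -1.18 ± 0.14 (adjusted p = 0.000164), PCDHA10 at -0.88 ± 0.13 and the C-type PCDHAC1 at -0.87 ± 0.15, and none of these 4 exons overlapped between groups. PCDHAC2 fell by less, from 5.53 and 5.93 to 4.20 and 3.64 CPM (-0.56 ± 0.15, adjusted p = 0.0153), a call lost without BRCA1+ control replicate 2 or BRCA1-null control replicate 2. PCDHA6 also fell (-0.41 ± 0.14, adjusted p = 0.0435), but it shares 25.1% of its 50-base windows with PCDHA8, and its call was lost with upper-quartile factors, with either other filter, with DESeq2 and without several single libraries. PCDHA8, at 13 and 21 counts against 5 and 0, was called lower (adjusted p = 0.0276) on few counts, and the call was lost without BRCA1+ control replicate 2 or BRCA1-null control replicate 2. Its 0 is a negative difference set to 0, as the row had 866 counts in that BRCA1-null library against 869 for PCDHA1.

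Not every PCDHA exon was lower. PCDHA5 was at 1.70 and 1.48 CPM in BRCA1+ control and at 2.02 and 1.97 CPM in BRCA1-null control libraries (0.33 ± 0.20, adjusted p = 0.209). PCDHA9 was called higher, at 1.10 and 1.61 against 1.98 and 2.96 CPM (0.87 ± 0.27, adjusted p = 0.0277). That call was lost without BRCA1-null control replicate 2, the highest library, without BRCA1+ control replicate 1, with DESeq2 and with only the groups compared in the fit, with adjusted p-values of up to 0.205 over all alternatives. The number of PCDHA exons called fell from 8 to 5 without BRCA1+ control replicate 2 and to 4 without BRCA1-null control replicate 2.

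Among PCDHG exons, 3 of 7 B-type and 3 of 10 tested A-type members were lower, and 0 of 3 C-type members were called, by edgeR or at an unadjusted p under 0.05. PCDHGB4 was at 13.4 and 13.1 CPM in BRCA1+ control and at 7.34 and 7.56 CPM in BRCA1-null control libraries, with replicates close to each other and groups well apart (-0.83 ± 0.10, adjusted p = 0.000263). PCDHGB5 was at 18.5 and 20.1 against 10.3 and 12.3 CPM (-0.77 ± 0.12, adjusted p = 0.000962). PCDHGB1, at 2.95 and 3.42 against 1.58 and 1.40 CPM, fell by 1.11 on the log2 scale (SE 0.19, adjusted p = 0.00148).

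The A-type exons PCDHGA4 (-1.44 ± 0.37), PCDHGA8 (-0.92 ± 0.28) and PCDHGA9 (-0.70 ± 0.24) were also called lower, each on fewer than 100 counts in a library, and the number of PCDHG exons called fell from 6 to 3 without BRCA1+ control replicate 2 or BRCA1-null control replicate 1. The call for PCDHGA9 was lost under 11 of 15 alternatives, among them upper-quartile factors, DESeq2 and the removal of any of the 8 libraries, and that for PCDHGA8 under 4, among them DESeq2. PCDHGC3, the most abundant exon of all, was at 31.3 and 35.2 CPM in BRCA1+ control and at 26.7 and 28.7 CPM in BRCA1-null control libraries. The groups did not overlap, but the difference did not pass the test (-0.26 ± 0.13, adjusted p = 0.136). PCDHGC4 (0.02 ± 0.19) and PCDHGC5 (0.06 ± 0.19) had values in BRCA1-null libraries that overlapped those of BRCA1+ libraries. Whether the C-type exons differed less than the B-type exons was not tested.

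**Figure D3:**
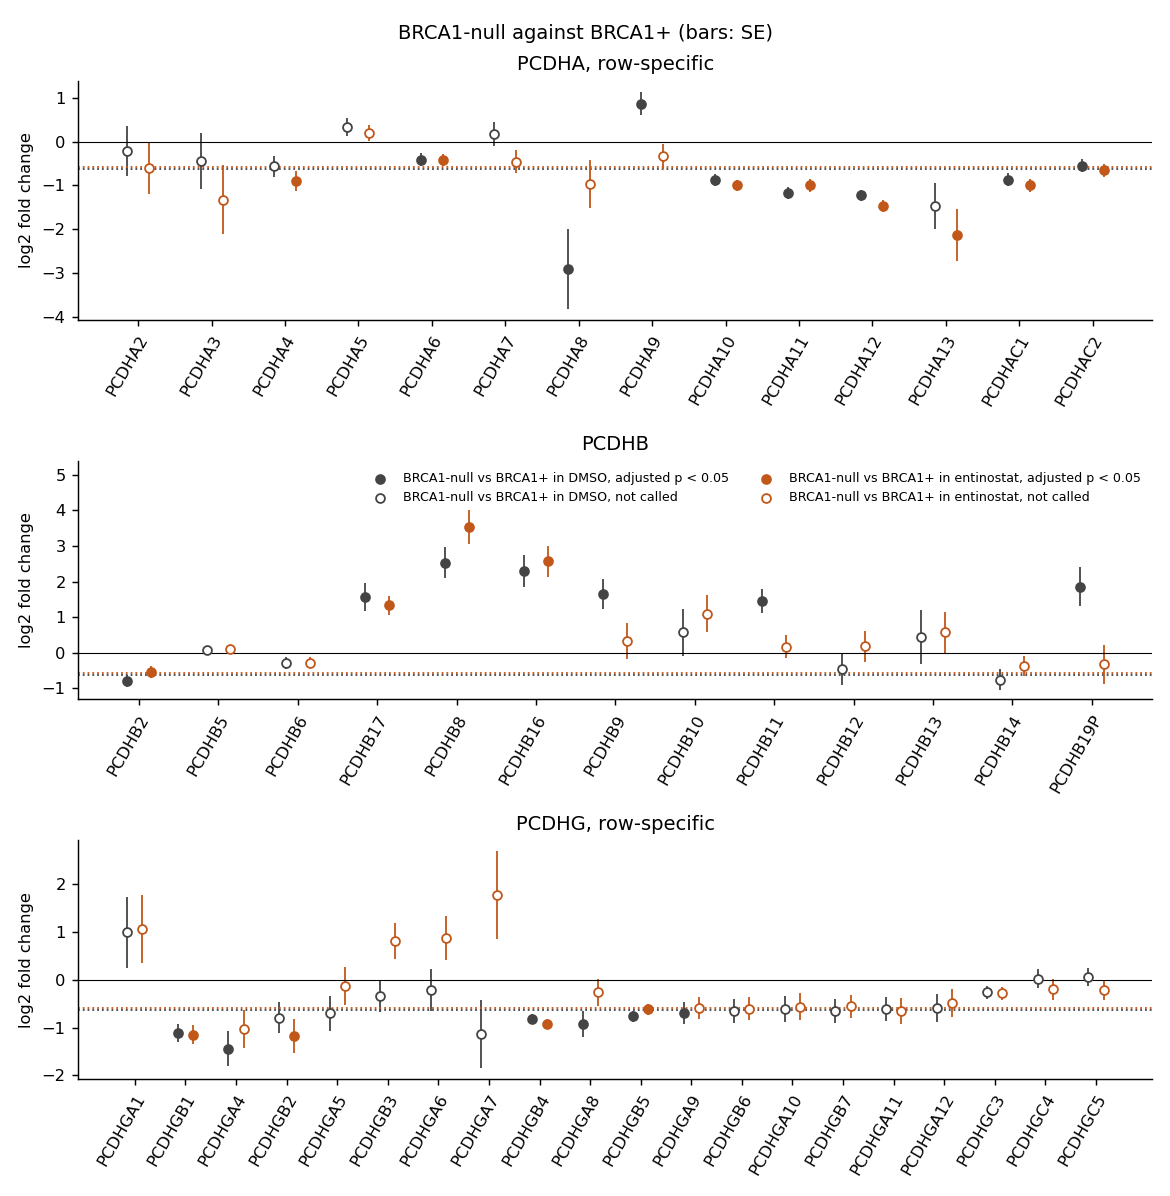
Log2 fold change of BRCA1-null against BRCA1+ cells, with SE, in DMSO (dark) and in entinostat (orange), for PCDHA row-specific counts, PCDHB rows and PCDHG row-specific counts in chromosomal order. Filled points were called at an adjusted p under 0.05, and dotted lines mark the median of the 20 nearest tested genes outside the clusters (-0.62 in DMSO, -0.58 in entinostat). PCDHB8 and PCDHB16 stand above 0 in both media, and PCDHA10 to PCDHA12, PCDHAC1, PCDHGB1, PCDHGB4 and PCDHGB5 below 0.

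Of the 3 most abundant PCDHB genes, 1 was lower in BRCA1-null cells and the other two were not called. PCDHB5, the most abundant, was at 7.55 and 7.73 CPM in BRCA1+ control and at 7.43 and 8.70 CPM in BRCA1-null control libraries, with overlap (0.08 ± 0.12, adjusted p = 0.608). PCDHB2 was lower, at 6.33 and 7.25 against 3.89 and 3.99 CPM (-0.79 ± 0.16, adjusted p = 0.00433). PCDHB6 was at 3.98 and 4.03 against 3.74 and 2.83 CPM and was not called (-0.30 ± 0.17, adjusted p = 0.184).

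The PCDHB genes called higher in BRCA1-null cells were under 1 CPM in BRCA1+ control libraries. Genes this scarce in 1 line could pass the filter on low counts through the line where they were high, so their number among the tested rows is no measure of the cluster, and the filter of at least 1 CPM in 4 libraries left only PCDHB2, PCDHB5, PCDHB6 and PCDHB14, of which PCDHB2 was called. PCDHB8 rose from 0.150 and 0.131 CPM in BRCA1+ control to 0.857 and 0.791 CPM in BRCA1-null control libraries, a log2 fold change of 2.53 ± 0.43 (5.78-fold, adjusted p = 0.00139). PCDHB16, its neighbour on the chromosome, rose from 0.175 and 0.109 to 0.549 and 0.828 CPM (2.30 ± 0.46, 4.93-fold, adjusted p = 0.00355). Neither pair of groups overlapped, and both calls were kept under every alternative in which the gene was tested. As a share of all PCDHB counts, PCDHB2 went from 30.6% ± 1.23 (SD, n = 2) in BRCA1+ control to 17.6% ± 0.772 in BRCA1-null control libraries, and PCDHB8 from 0.637% ± 0.0977 to 3.70% ± 0.438.

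Reads of PCDHB8 are less certain than those of PCDHB16. Of its 50-base windows, 46.2% also occur in another clustered row, mostly in PCDHB13 (32.9%), against 10.9% for PCDHB16. PCDHB13 itself was at 0.05002 and 0.174 CPM in BRCA1+ control and at 0.0879 and 0.221 CPM in BRCA1-null control libraries and was not called (adjusted p = 0.666).

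The other 4 were PCDHB17 (1.56 ± 0.39, adjusted p = 0.0112), PCDHB9 (1.66 ± 0.42, adjusted p = 0.0115), PCDHB11 (1.46 ± 0.34, adjusted p = 0.00788) and PCDHB19P (1.86 ± 0.54, adjusted p = 0.021). PCDHB17 was at 0.325 and 0.240 CPM in BRCA1+ control and at 0.879 and 0.791 CPM in BRCA1-null control libraries. PCDHB9 had unlike replicates in BRCA1-null cells, 1.21 and 2.59 CPM against 0.575 and 0.654 CPM in BRCA1+ cells. All 4 calls were lost without BRCA1+ control replicate 2, which left 3 of the 7 PCDHB calls. The calls for PCDHB11 and PCDHB19P were also lost with DESeq2, and those for PCDHB9 and PCDHB19P without BRCA1+ control replicate 1 or BRCA1-null control replicate 2. Without the latter library the log2 fold change of PCDHB9 was 0.97 (adjusted p = 0.0748). In place of a rise, PCDHB14 was measured lower, at 1.05 and 1.35 against 0.879 and 0.570 CPM, without passing the test (-0.76 ± 0.30, adjusted p = 0.0645).

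**Figure D4:**
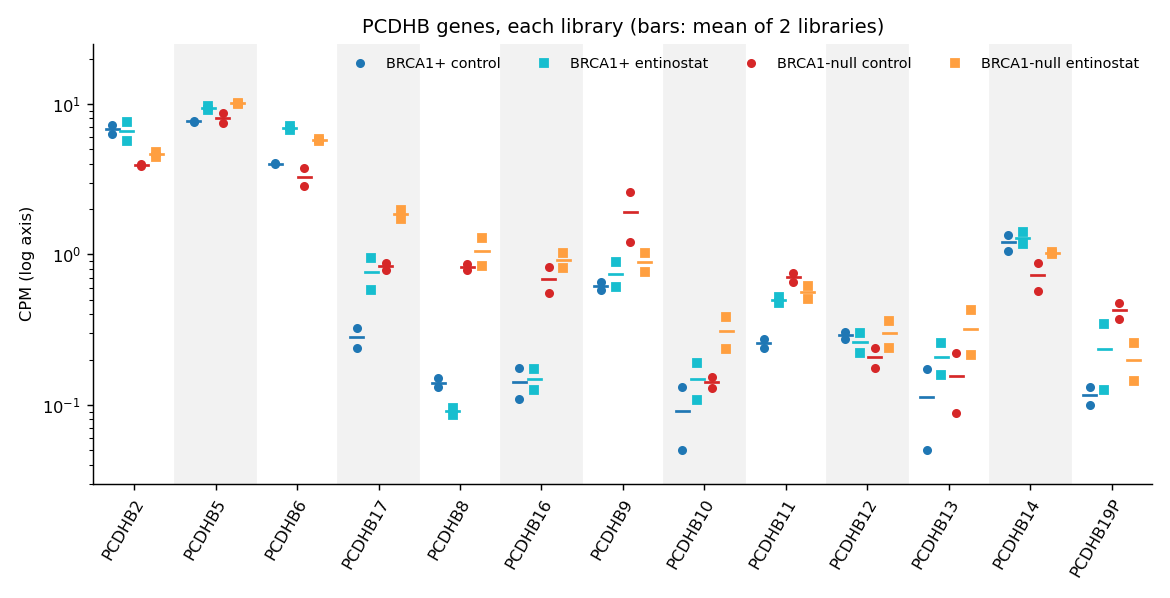
CPM of the 13 tested PCDHB genes on a log axis, 1 point per library and a bar at the mean of the 2 libraries of a group. PCDHB5, PCDHB2 and PCDHB6 lie above 2 CPM in every library, and the BRCA1-null libraries of PCDHB8 and PCDHB16 lie above 0.5 CPM with all BRCA1+ libraries below 0.2 CPM.

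In entinostat the same question was asked of treated cells, with 39.4% of all genes called (20.5% higher, 18.9% lower). All 15 PCDHA rows and 22 PCDHG rows were again lower in BRCA1-null cells, and of the PCDHB rows 3 were higher and 1 was lower. The PCDHA shared count was 32.4 and 35.2 CPM in BRCA1+ entinostat and 19.4 and 18.2 CPM in BRCA1-null entinostat libraries (-0.85 ± 0.10, adjusted p = 0.000216). The PCDHG shared count was 65.5 and 72.4 against 49.7 and 52.5 CPM (-0.43 ± 0.07, adjusted p = 0.00148).

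Row-specific counts were lower for 8 of 14 PCDHA and 4 of 20 tested PCDHG exons and higher for 0, in a fit that called 39.2% of all genes (20.5% higher, 18.7% lower). PCDHA12 was at 11.95 and 13.4 CPM in BRCA1+ entinostat and 4.31 and 4.93 CPM in BRCA1-null entinostat libraries (-1.47 ± 0.14, adjusted p = 5.49e-05). PCDHA10 (-1.001 ± 0.13), PCDHA11 (-1.002 ± 0.14), PCDHAC1 (-0.997 ± 0.15) and PCDHAC2 (-0.65 ± 0.15) were lower as well, and PCDHA9 was not called. PCDHGB4 (-0.93 ± 0.10), PCDHGB1 (-1.15 ± 0.20) and PCDHGB5 (-0.62 ± 0.12) were lower, and PCDHGC3 (-0.28 ± 0.14) was not called. With the replicate number as a block in edgeR, PCDHGC3 was called lower (adjusted p = 0.0213). Without BRCA1-null entinostat replicate 2 its log2 fold change was -0.51. Without BRCA1+ entinostat replicate 2, 5 of the 8 PCDHA calls were left.

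Of the PCDHB genes, PCDHB8 was at 0.0946 and 0.0862 CPM in BRCA1+ entinostat, close to the floor, and at 1.28 and 0.838 CPM in BRCA1-null entinostat libraries (3.54 ± 0.47, adjusted p = 0.000341). PCDHB16 was at 0.126 and 0.172 against 1.02 and 0.814 CPM (2.57 ± 0.44, adjusted p = 0.00161), and PCDHB17 at 0.946 and 0.582 against 1.96 and 1.72 CPM (1.33 ± 0.27, adjusted p = 0.00418). PCDHB2 was lower (-0.54 ± 0.17, adjusted p = 0.0292). Without BRCA1+ entinostat replicate 2 the calls for PCDHB17 and PCDHB2 were lost, leaving 2 of 4.

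PCDHB9, PCDHB11 and PCDHB19P were called between the lines in DMSO and not in entinostat. The difference of these effects was tested as the interaction and was not called for any of them. It was -1.33 ± 0.68 for PCDHB9, -1.29 ± 0.48 for PCDHB11 and -2.19 ± 0.79 for PCDHB19P, with adjusted p = 0.967 for each. By edgeR 0 members and 0 of all genes were called for the interaction, and at an unadjusted p under 0.05 there were 2 PCDHB rows (PCDHB11 and PCDHB19P), 0 PCDHA rows and 0 PCDHG rows, most of whose counts are shared. Of all 17714 genes tested, 827 had an unadjusted p under 0.05 for the interaction. Of the row-specific counts 0 were called, and PCDHA9 (-1.20 ± 0.40, adjusted p = 0.966) and PCDHGA7, which had at most 15 counts in a library, were at an unadjusted p under 0.05. DESeq2 called 0 members and 0 row-specific counts. At 2 libraries per group the intervals of these differences remain wide.

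Entinostat against DMSO asks how inhibition of histone deacetylases goes with expression within each line. Few clustered protocadherins were called, which at 2 libraries per group does not show that the others were unchanged. In BRCA1+ cells PCDHB6 was the only member called, and it rose, against 14.1% of all genes (8.15% higher, 6% lower). In BRCA1-null cells PCDHB6 and PCDHB17 rose, against 10.8% of all genes (7.57% higher, 3.19% lower). Of the 13 tested PCDHB rows, which share no constant exons, 1 and 2 were thus called. Summed PCDHB levels were higher in treated than in control libraries of each line, a difference that was not tested. For BRCA1+ they were 21.3 and 23.0 CPM in control and 26.7 and 29.5 CPM in entinostat libraries. The BRCA1-null sums were 21.4 and 23.3 CPM against 29.4 and 27.5 CPM. Each entinostat comparison shares its control libraries with the comparison of the lines in DMSO, and its treated libraries with the comparison of the lines in entinostat, so these results are not independent of each other.

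PCDHB6 rose in BRCA1+ cells from 3.98 and 4.03 CPM in control to 6.75 and 7.09 CPM in entinostat libraries (0.79 ± 0.15, 1.73-fold, adjusted p = 0.0109). In BRCA1-null cells it rose from 3.74 and 2.83 to 5.67 and 5.82 CPM (0.82 ± 0.16, 1.76-fold, adjusted p = 0.0145). The treated libraries lay above the control libraries in both lines, and the interaction was 0.03 ± 0.22. The call in BRCA1+ cells was lost without BRCA1+ control replicate 1 or 2 or BRCA1+ entinostat replicate 2, and that in BRCA1-null cells without BRCA1-null control replicate 2 or either BRCA1-null entinostat library, with adjusted p-values up to 0.094 and 0.0906.

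PCDHB17 rose in BRCA1-null cells from 0.879 and 0.791 CPM to 1.96 and 1.72 CPM (1.15 ± 0.25, 2.22-fold, adjusted p = 0.0223). In BRCA1+ cells it was at 0.325 and 0.240 CPM in control and 0.946 and 0.582 CPM in entinostat libraries, without overlap, and did not pass the test (1.38 ± 0.43, adjusted p = 0.062). The interaction of PCDHB17 was -0.23 ± 0.50. Its call in BRCA1-null cells was lost with DESeq2, with only the groups compared in the fit, and without any of the BRCA1-null libraries. PCDHB5, at 7.55 and 7.73 against 9.11 and 9.70 CPM in BRCA1+ cells and at 7.43 and 8.70 against 10.1 and 10.03 CPM in BRCA1-null cells, had treated libraries above control libraries in both lines and was not called in either (0.30 ± 0.12, adjusted p = 0.129, and 0.32 ± 0.11, adjusted p = 0.108).

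For PCDHA and PCDHG the measured change with entinostat was small where counts were high. The PCDHA shared count changed by 0.07 ± 0.10 in BRCA1+ and 0.14 ± 0.11 in BRCA1-null cells on the log2 scale, and the PCDHG shared count by -0.04 ± 0.07 and -0.11 ± 0.07. By edgeR 0 PCDHA rows and 0 PCDHG rows were called in either line, 0 of them had an unadjusted p under 0.05, and DESeq2 also called 0. Of the row-specific counts 0 were called by either tool, in fits where edgeR called 14.2% of all genes for BRCA1+ cells, with 8.15% higher and 6.01% lower. For BRCA1-null cells that share was 10.7%, with 7.55% higher and 3.18% lower. There were 4 PCDHA and 3 PCDHG exons at an unadjusted p under 0.05 in BRCA1+ cells and 3 and 1 in BRCA1-null cells. PCDHGC3 was among them in both lines, at 31.3 and 35.2 CPM in BRCA1+ control and 24.8 and 28.6 CPM in BRCA1+ entinostat libraries (-0.31 ± 0.13, adjusted p = 0.16) and with -0.33 ± 0.14 (adjusted p = 0.152) in BRCA1-null cells. Without BRCA1-null entinostat replicate 2 the latter was -0.56 (adjusted p = 0.0464).

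**Figure D5:**
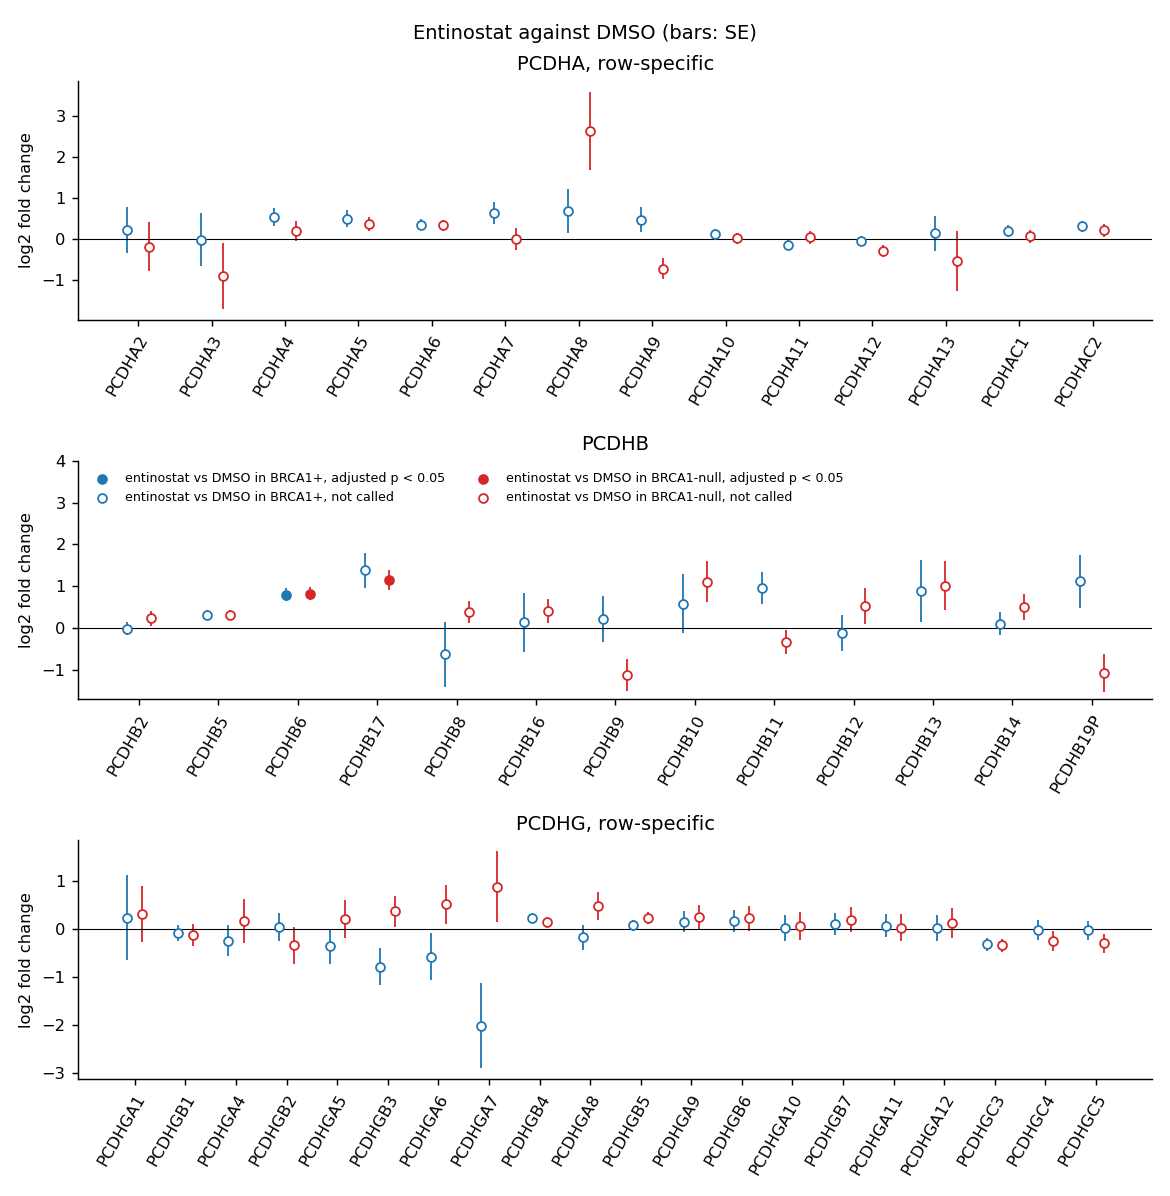
Log2 fold change of entinostat against DMSO, with SE, in BRCA1+ (blue) and BRCA1-null (red) cells, for PCDHA row-specific counts, PCDHB rows and PCDHG row-specific counts in chromosomal order. Filled points were called at an adjusted p under 0.05, which holds for PCDHB6 in both lines and for PCDHB17 in BRCA1-null cells.

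Genes around the clusters were lower in BRCA1-null cells too. Of the 20 nearest tested genes outside the clusters, 19 were lower in DMSO and 18 in entinostat, with medians of -0.62 and -0.58 on the log2 scale and 0 higher. Among all genes tested, 21% were called lower in DMSO and 18.9% in entinostat. TAF7, a subunit of the general transcription factor TFIID whose gene lies between the PCDHB and PCDHG clusters (chr5:140698057-140700351, hg19), was at 74.5 and 81.2 CPM in BRCA1+ control and at 49.97 and 48.8 CPM in BRCA1-null control libraries (-0.66 ± 0.07, adjusted p = 7.31e-05). Of the 771 tested genes of chromosome 5 outside the clusters 427 were lower and 80 higher in DMSO, with a median of -0.49. The PCDHA shared count (-0.92) lay below the neighbours' median and the PCDHG shared count (-0.37) above it. The scarce PCDHB rows called higher, PCDHB8, PCDHB9, PCDHB11, PCDHB16, PCDHB17 and PCDHB19P, were by that choice on the other side of 0. The PCDHB rows left by the filter of at least 1 CPM in 4 libraries were PCDHB2 (-0.79), PCDHB14 (-0.76), PCDHB6 (-0.30) and PCDHB5 (0.08). The number of copies of chromosome 5 was not analysed here, and its part in these differences was not tested.

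Genes known to act on the clusters were examined as a list of 24, of which 23 were tested. In DMSO 3 were higher and 7 lower in BRCA1-null cells, and in entinostat 3 and 3, with medians of -0.10 and -0.05, where 42.2% and 39.4% of all genes were called. The share called was thus near that of all genes in DMSO and below it in entinostat. DNMT3B, a de novo DNA methyltransferase, was lower in BRCA1-null cells in DMSO (-1.48 ± 0.07, adjusted p = 1.51e-06) and in entinostat (-1.14 ± 0.07), and the cohesin subunit RAD21 was higher (0.18 ± 0.05 and 0.23 ± 0.05). The call for RAD21 in DMSO was lost without BRCA1+ control replicate 1 or BRCA1-null control replicate 2. PDS5B, which regulates cohesin, was lower in both media (-0.41 ± 0.08 and -0.26 ± 0.08), and the call in entinostat was lost without BRCA1+ entinostat replicate 1 or either BRCA1-null entinostat library. CTCF was lower in BRCA1-null cells in DMSO (-0.30, adjusted p = 0.0158). Its call was lost without BRCA1+ control replicate 2 or BRCA1-null control replicate 2. SMCHD1, which represses the clusters, and REST, a repressor of neuronal genes, were not called in any comparison.

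With entinostat 1 of these was higher and 5 were lower in BRCA1+ cells, and 1 was higher and 2 were lower in BRCA1-null cells. Of all genes tested, 8.15% were higher and 6% lower in BRCA1+ cells, and 7.57% and 3.19% in BRCA1-null cells. CTCF fell from 51.5 and 55.2 to 34.7 and 37.6 CPM in BRCA1+ cells (-0.56 ± 0.08, adjusted p = 0.00414) and from 45.6 and 41.2 to 33.0 and 35.8 CPM in BRCA1-null cells (-0.34 ± 0.08, adjusted p = 0.0356). The cohesin subunit STAG1 fell in both lines (-0.52 ± 0.08 and -0.39 ± 0.07), and its call in BRCA1-null cells was lost with only the groups compared in the fit and without BRCA1-null control replicate 1 or either BRCA1-null entinostat library (adjusted p up to 0.0769). DNMT3B rose in BRCA1-null cells (0.60 ± 0.07, adjusted p = 0.00265) and in BRCA1+ cells (0.26 ± 0.07, adjusted p = 0.0344), and the latter call was lost without any of the BRCA1+ libraries. The call for CTCF in BRCA1-null cells was lost without 6 of the 8 libraries, with adjusted p up to 0.182.

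Proteins that work with clustered protocadherins formed a list of 19, with 18 tested. In BRCA1-null against BRCA1+ cells 2 were higher and 11 lower in DMSO, and 3 and 9 in entinostat, where 21.1% and 20.5% of all genes were higher and 21% and 18.9% lower. CYFIP2 and ABI2, members of the WAVE complex that protocadherin tails bind, were lower in DMSO (-1.02 ± 0.18 and -0.81 ± 0.06) and in entinostat (-1.06 ± 0.18 and -0.72 ± 0.06). FYN, a kinase under protocadherin control, rose with entinostat from 3.45 and 3.96 to 13.1 and 11.6 CPM in BRCA1+ cells (1.72 ± 0.14, adjusted p = 0.000328) and from 6.15 and 6.92 to 17.2 and 16.3 CPM in BRCA1-null cells (1.36 ± 0.11, adjusted p = 0.000806). With entinostat 2 were higher and 1 lower in BRCA1+ cells, and 2 higher and 0 lower in BRCA1-null cells. Among all genes tested these shares were 8.15% and 6% in BRCA1+ cells, and 7.57% and 3.19% in BRCA1-null cells.

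Non-clustered protocadherins, which lie outside the clusters and share no constant exons with them, moved in both directions. Of 12 listed genes 9 were tested, and in DMSO 3 were higher and 3 lower in BRCA1-null cells, against 21.1% and 21% of all genes. PCDH19, the most abundant, was at 146 and 157 CPM in BRCA1+ control and at 46.5 and 38.1 CPM in BRCA1-null control libraries (-1.84 ± 0.11, adjusted p = 3.8e-06), and PCDH7 at 19.4 and 22.2 against 3.16 and 1.69 CPM (-3.13 ± 0.25, adjusted p = 1.9e-05). PCDH1, which is among the 10 nearest tested genes after the clusters, was also lower (-0.56 ± 0.13), a call lost without BRCA1-null control replicate 2. PCDH18 was higher, at 0.176 and 0.276 CPM against 0 and 0.0218 CPM, with both BRCA1+ control libraries under the floor, and so were PCDH9 (1.12 ± 0.34) and PCDH11X (1.00 ± 0.35).

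In entinostat 1 non-clustered protocadherin was higher and 3 were lower in BRCA1-null cells, against 20.5% and 18.9% of all genes. With entinostat PCDH20 rose in BRCA1+ cells from 0.175 and 0.109 to 0.568 and 0.819 CPM (2.33 ± 0.46, adjusted p = 0.0121) and in BRCA1-null cells from 0.330 and 0.313 to 1.19 and 0.958 CPM (1.75 ± 0.32, adjusted p = 0.0126). PCDH10 rose in BRCA1-null cells (2.04 ± 0.48, adjusted p = 0.031). PCDH19 fell in both lines (-0.68 ± 0.10 and -0.62 ± 0.11). The call for PCDH20 was lost in BRCA1+ cells without BRCA1+ control replicate 2 or BRCA1+ entinostat replicate 2, and in BRCA1-null cells without BRCA1-null control replicate 2 or BRCA1-null entinostat replicate 1. That for PCDH19 in BRCA1-null cells was lost without BRCA1-null entinostat replicate 2. The calls for PCDH10 with entinostat and for PCDH9 and PCDH11X between the lines were lost with DESeq2 and without 3 or more of the single libraries.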

How the data were processed

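Poly(A) RNA sequencing libraries of UWB1.289 cells were analysed as raw counts per gene, deposited by the authors in 1 table without normalization. Per the labels and the study's methods the authors prepared libraries with a NEBNext kit, aligned reads to hg19 with TopHat and quantified genes with NGSUtils. How the counting treated overlapping genes, strand and reads with several positions was not given in the sources used here. A row without a name held 0 counts and was left out.

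Groups and replicate numbers came from the titles. All 8 libraries entered a quasi-likelihood fit in edgeR 4.0.16 (R 4.3.3) with 4 group means, after filterByExpr and TMM scaling, and p-values were adjusted over all genes by Benjamini-Hochberg. A gene was called at an adjusted p under 0.05, two-sided. The common coefficient of variation was 9.04%. Where a cluster shares exons, row-specific counts (row minus the cluster's lowest row, with 4 negative differences set to 0) were fitted in the whole table again. Shared exons, lengths and 50-base windows came from GENCODE on GRCh37. The script for testing was tried on simulated counts with 200 changed genes.

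The members, lists and tests were chosen with earlier results of these data known. Named were all tested PCDHB rows, C-type rows, extremes of level and change among the others, and called non-clustered protocadherins, with CTCF, RAD21, SMCHD1, DNMT3B, REST and TAF7 fixed. Named from each list were some of the 3 largest called changes per contrast. Those of ZNF274, RCOR1, WIZ and PSEN2, and some of FYN and ABI2, are not described. Other row-specific exons named in the text, such as PCDHA5, were chosen after their values were seen. Alternatives were other scaling, filters, DESeq2 1.42.0, a replicate block, only the groups compared, and each library left out.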

Additional observations from a re-analysis of the deposited data

How the results depend on the processing

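None of the 126 called values of named genes and exons reversed under any alternative, 83 were called under all alternatives that gave a value, and 43 were lost under at least 1. A further 23 values were called only under an alternative, and 271 of 4541 pairs of an uncalled value and an alternative had the other sign. PCDHA rows called fell from 15 to 9 in both line comparisons when the lowest row was subtracted. With the filter of at least 1 CPM in 4 libraries only 4 PCDHB rows were tested, and 1 was called between the lines in DMSO, 1 in entinostat and 1 with entinostat in BRCA1-null cells. In the last of these comparisons DESeq2 called 1 and a fit of only the groups compared called 0. Row-specific counts and all alternatives on them were added after the data were seen.

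With 1 library left out, the lone library of its group is assumed to vary like the others. PCDHB rows called then ranged from 3 to 8 between the lines in DMSO, from 2 to 4 in entinostat, from 0 to 1 on entinostat treatment of BRCA1+ cells (0 without BRCA1+ control replicate 1 or 2 or BRCA1+ entinostat replicate 2), and from 0 to 2 on treatment of BRCA1-null cells (0 without BRCA1-null control replicate 2 or either BRCA1-null entinostat library). Row-specific PCDHA counts called ranged from 4 to 8 in DMSO and 5 to 8 in entinostat. Those of PCDHG ranged from 3 to 7 in DMSO, and from 0 to 1 with entinostat in BRCA1-null cells (1 without BRCA1-null entinostat replicate 2).

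Nothing says what a replicate number marks. Deviations of libraries with the same number correlated at 0.0523 to 0.287 over 6 pairs of groups, all positive. Whether the numbers pair the libraries was not tested. With the replicate number as a block, PCDHA rows called stayed at 15 and PCDHG rows at 22 between the lines, and PCDHB rows at 7 and 4. With entinostat the block gave 2 PCDHB rows for BRCA1+ cells, and 3 PCDHB rows and 1 PCDHG row for BRCA1-null cells. Of row-specific counts the block called 9 and 8 PCDHA and 9 and 6 PCDHG exons between the lines, and 1 PCDHG exon with entinostat in each line, which was PCDHGC3. PCDHGC3 was called lower under the block in all 4 comparisons, with adjusted p = 0.019 and 0.0213 between the lines and 0.0189 and 0.0202 with entinostat. Depth limits the members under 1 CPM, where few counts stand behind a call.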
